A study of Mus musculus with 4 samples.

Results

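Basal cells are the outer layer of the mammary epithelium, and 852 of the 18200 cells kept from 4 mammary gland libraries were taken as basal by their transcripts. A kept cell was a member if it carried at least 1 UMI of 3 or more of 7 genes, *Krt5*, *Trp63*, *Col17a1*, *Dkk3*, *Lmo1*, *Moxd1* and *Jag2*. Its UMIs of *Col1a1*, *Col1a2* and *Col3a1* together had to stay under 0.5% of its total, and it had to carry no UMI of *Pecam1* or *Ptprc*, which leaves out fibroblasts, endothelial cells and leukocytes. *Krt14* was not used. A UMI is a molecular tag that counts 1 captured transcript once, and the text gives levels as UMIs per 1000000 of the summed basal UMIs of a library, scaled by the TMM method (CPM). Because the members were chosen by measured transcripts, the levels of the rule's own genes are described and not tested.

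The libraries come from adult nulliparous mice, 1 library per mouse and 2 mice per condition, all with *Lats1* f/f and *Lats2* f/f alleles and an R26-lsl-EYFP reporter. CTL mice carried no Cre and were heterozygous for the reporter. LATS1/2-KO mice carried Krt8-CreERT2 besides; replicate 1 was heterozygous for the reporter and replicate 2 homozygous. Mice of both conditions received 2 mg of tamoxifen on each of 5 days and were sampled 7 days after the last dose, when live cells of the dissociated glands were sorted without selection for a cell type and run as 10x Genomics 3′ libraries. *Krt8* is a luminal keratin, so the driver puts Cre in luminal cells and the genotype is not a deletion aimed at basal cells. Counts taken at the 3′ end do not show whether the floxed exons were removed. *Lats1* stood at 22.1 and 23.2 CPM in CTL basal cells and at 30.9 and 24.0 in LATS1/2-KO basal cells, and *Lats2* at 34.1 and 32.4 against 25.5 and 33.5, and neither passed the test described below (adjusted p 0.65 and 0.77, edgeR quasi-likelihood test with Benjamini-Hochberg adjustment).

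Mammary basal cells lie on the basement membrane around the luminal layer. Most of them are myoepithelial: they hold smooth muscle actin and myosin, contract when oxytocin binds its receptor, and so eject milk. They also lay down laminins and collagens, attach through integrins and hemidesmosomes, and supply ligands to their luminal neighbours. LATS1 and LATS2 are the kinases of the Hippo pathway that hold back the coactivators YAP and TAZ, which act on DNA through TEAD factors.

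The basal label was checked against markers that the rule did not use. *Krt14*, the keratin partner of *Krt5*, stood at 1418 and 1811 CPM in CTL members and at 2664 and 2628 in LATS1/2-KO members, and *Acta2*, smooth muscle alpha-actin, at 2016, 4308, 1711 and 2240 CPM in CTL replicates 1 and 2 and LATS1/2-KO replicates 1 and 2, the order used throughout. In luminal cells, defined by *Epcam* and by *Krt8* and *Krt18* at 0.4% of UMIs or more, the 26 basal markers listed summed to 759 and 717 CPM in CTL and 3594 and 3043 in LATS1/2-KO, against 9327 to 15562 in the members. Markers of other cells were low in the members: 9 fibroblast markers summed to 267, 391, 89.3 and 211 CPM, with *Lum* at 0 UMIs in both CTL sums and at 11 and 32 UMIs in those of LATS1/2-KO; 7 pericyte markers summed to 12.1 to 40.7 CPM, 6 endothelial markers to 0 to 11.2 with *Pecam1* at 0 by the rule, and 7 immune markers to 87.6 to 141. In CTL, *Col14a1* alone stood at 132 and 195 CPM. The 3 collagens that the rule limits were higher in LATS1/2-KO members. *Col1a1* stood at 6.02, 6.95, 83.4 and 95.7 CPM, *Col1a2* at 8.02, 11.6, 61.8 and 85.5, and *Col3a1* at 2.01, 0, 91.7 and 71.7. In LATS1/2-KO luminal cells *Col1a1* stood at 58.9 and 67.9 CPM. The source of these collagen UMIs was not tested. No member barcode was shared between libraries, where 4 to 17 of all barcodes were shared by a pair.

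Luminal transcripts were not low. The 22 luminal markers summed to 12790, 4951, 9599 and 8284 CPM in the members, against 31661 to 32090 in luminal cells. Some of this sat in few cells: 13, 2, 41 and 32 members had *Krt8* and *Krt18* at 0.3% of their UMIs or more, and in CTL replicate 1 those 13 cells held 44.6% of the basal UMIs. Without them 764 low-keratin members remained (74, 91, 245 and 354), and the luminal markers fell to 3037, 3185, 5989 and 5097 CPM. Free RNA, estimated from 4 luminal genes (*Wfdc18*, *Csn3*, *Plet1* and *Trf*) assumed not to be made by basal cells, came to 35.6, 14.2, 28.5 and 26.4% of all members' UMIs and to 6.63, 6.37, 11.4 and 5.85% in the low-keratin members. Over the high-keratin members alone the same estimate gave 71.5, 123, 86.9 and 135%. In replicate 2 of each condition it exceeded all of their UMIs, which a share of free RNA cannot do. The all-member shares include these cells and can overstate free RNA, as can the all-member percentages of single genes below. The source of the 4 transcripts in high-keratin members was not tested. The 4 genes taken singly differed widely: in low-keratin members of LATS1/2-KO replicate 1 *Csn3* gave 7.32% and *Trf* 63.8%, and in those of replicate 2 *Wfdc18* gave 2.54% and *Trf* 44.5%. In endothelial cells the 4 together gave 28.4 to 59.6%, so free RNA shares and values after subtraction are rough. The results below are therefore given over all members, and beside them over the low-keratin members where a call changed.

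Basal cells made up a larger share of the kept cells in both LATS1/2-KO libraries than in either CTL library. There were 87 of 4914 (1.77%, exact 95% interval 1.42 to 2.18) and 93 of 3515 (2.65%, 2.14 to 3.23) in CTL, and 286 of 4499 (6.36%, 5.66 to 7.11) and 386 of 5272 (7.32%, 6.63 to 8.06) in LATS1/2-KO. The mean rose from 2.21% ± 0.619 to 6.84% ± 0.682 (SD, n = 2 each), a difference of 4.63 percentage points. Intervals cover counting error only, and with 2 mice against 2 the exact two-sided permutation test gave 0.33, the smallest p it can give. The conditions did not overlap, yet a share depends on the cells around it and on dissociation, and how far those moved it was not tested.

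**Figure D1:**
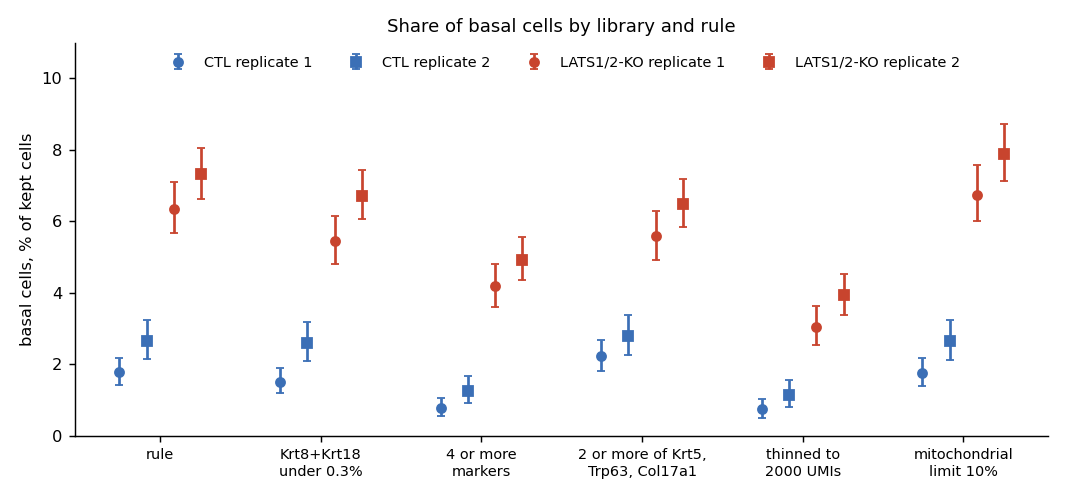
Basal cells as a percentage of kept cells, on the vertical axis, in each of the 4 libraries, for the rule and for other definitions on the horizontal axis. Points are libraries and bars are exact 95% binomial intervals; by the rule CTL stands at 1.77 and 2.65% and LATS1/2-KO at 6.36 and 7.32%, and in each definition both LATS1/2-KO libraries lie above both CTL libraries.

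The share depended on depth and on the markers asked for, while its order did not. Members had a median of 4130 and 4159 UMIs in CTL and 5834 and 5796 in LATS1/2-KO, and their median mitochondrial share was 6.05, 5.90, 4.18 and 5.21%. With every cell thinned to 2000 UMIs and shallower cells left out (a mean of 4.45% of kept cells in CTL and 11.8% in LATS1/2-KO), the mean share was 0.940% in CTL and 3.49% in LATS1/2-KO. Members that just met the rule, with 3 markers, were 56.3 and 52.7% of the members in CTL and 34.3 and 32.6% in LATS1/2-KO. The part of depth and RNA quality in the difference at full depth was not tested beyond this thinning. Cells just outside the rule, with 2 markers and the other limits met, numbered 84, 49, 113 and 114, and their summed *Krt14* stood at 906, 701, 2499 and 1428 CPM, their *Acta2* at 1658, 1268, 422 and 311.

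The 7 rule genes were not equally present in the members of both conditions. *Krt5* was seen in 94.6 to 96.6% of the members in each library. *Trp63*, the master transcription factor of basal epithelia, was seen in 58.6 and 48.4% of CTL members and in 34.3 and 31.1% of LATS1/2-KO members, and stood at 126 and 130 CPM against 61.8 and 57.1. *Moxd1* went the other way, in 16.1 and 18.3% against 54.9 and 57.8% of members, and so did *Lmo1*, a LIM-only transcriptional cofactor, in 59.8 and 61.3% against 88.1 and 85.5%. The rule thus took its members by partly different genes in the 2 conditions, and these values are a description of the choice. With at least 2 of *Krt5*, *Trp63* and *Col17a1* in place of the rule, the mean share was 2.50% in CTL and 6.03% in LATS1/2-KO.

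Few basal members carried the reporter transcript. *EYFP*, which marks cells in which Cre has recombined, was seen in 1 of 87 and 2 of 93 CTL members and in 12 of 286 (4.20%, exact 95% interval 2.19 to 7.21) and 24 of 386 (6.22%) LATS1/2-KO members. In luminal cells it was seen in 0.291 and 0.427% in CTL and in 23.4 and 30.2% in LATS1/2-KO. Endothelial cells, which should lack it, gave 3.30 and 4.30% in LATS1/2-KO at median depths of 3960 and 3318 UMIs. At 2000 UMIs per cell the basal share was 1.42 and 1.85% and the endothelial share 2.94 and 2.60%, so the share over all LATS1/2-KO basal members did not exceed the endothelial one. The free RNA estimate was higher in these endothelial cells, 33.8 and 59.6% against 28.5 and 26.4%, so they are no matched background. The high-keratin members of LATS1/2-KO replicate 2 stood apart, with *EYFP* in 12 of 32 (37.5%, exact 95% interval 21.1 to 56.3; 4 of 31 at 2000 UMIs), against 12 of 354 low-keratin members (3.39%; 0.865% at 2000 UMIs). In LATS1/2-KO replicate 1 the counts were 3 of 41 and 9 of 245. Replicate 1 was heterozygous and replicate 2 homozygous for the reporter, so reporter dose and mouse cannot be told apart in this contrast. A missing *EYFP* UMI does not show that a cell lacks the recombined reporter, since most luminal cells of these mice had none either.

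Across all genes, 8923 passed the low-count filter in the summed basal counts, and 1924 differed between LATS1/2-KO and CTL at an adjusted p under 0.05 (edgeR quasi-likelihood test, Benjamini-Hochberg adjustment), 21.6% of those tested. Of these, 977 (10.9%) were higher and 947 (10.6%) lower in LATS1/2-KO. Over the low-keratin members 2216 of 8252 genes were called (26.9%; 13.6% higher and 13.2% lower), and 1625 genes were called in both, all in the same direction: 84.5% of the first list and 73.3% of the second. With LATS1/2-KO replicate 1 left out the count over all members was 876, and with replicate 2 left out 932. Apart from the reporter dose, which differed between the 2 LATS1/2-KO mice, the labels say of the replicates only that they are separate mice. The p-values therefore measure the spread between 2 mice in each condition. The following groups of genes were drawn up with earlier results of these data known, and their counts are to be read against the 10.9 and 10.6% above.

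The contractile apparatus was lower in LATS1/2-KO basal cells at several of its parts, though not at all of them. Of 22 listed contractile genes 18 were tested; 8 were lower, 2 higher and 8 not called, with a median log2 fold change of -0.61 against -0.004 over all genes tested. Over the low-keratin members 11 of 19 were lower and 2 higher.

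The receptor stood first. *Oxtr*, the oxytocin receptor, was at 209 and 331 CPM in CTL and at 19.1 and 26.2 in LATS1/2-KO basal cells, a log2 fold change of -3.55 ± 0.26 (SE, adjusted p 8.0e-07, edgeR quasi-likelihood test with Benjamini-Hochberg adjustment). Both LATS1/2-KO libraries lay far under both CTL libraries. Over the low-keratin members *Oxtr* stood at 327 and 344 CPM in CTL and 20.9 and 29.3 in LATS1/2-KO. It was seen in 63.2 and 68.8% of CTL members and in 11.5 and 13.5% of LATS1/2-KO members; at 2000 UMIs per cell in low-keratin members the shares were 42.9 and 39.1% against 3.73 and 3.46%, with 0 of 68 and 0 of 77 LATS1/2-KO endothelial cells.

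The enzymes and regulators of contraction followed. *Mylk*, the kinase that phosphorylates the myosin light chain, stood at 285 and 473 CPM in CTL and 50.5 and 76.0 in LATS1/2-KO (log2 fold change -2.57 ± 0.27, edgeR adjusted p 1.5e-05). *Cnn1*, the actin-binding calponin, stood at 321 and 674 against 36.3 and 69.9 CPM (-3.21 ± 0.34). *Lmod1*, which nucleates actin in smooth muscle, stood at 164 and 378 against 45.1 and 53.5 CPM (-2.44 ± 0.30). These 3 genes fell by larger steps than the filament proteins themselves.

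Among the filament proteins, *Myh11*, the smooth muscle myosin heavy chain, stood at 319 and 725 CPM in CTL and 128 and 158 in LATS1/2-KO (log2 fold change -1.87 ± 0.30, edgeR adjusted p 0.00051). *Tagln*, transgelin, stood at 1330 and 2659 against 825 and 875 CPM (-1.23 ± 0.25, adjusted p 0.0027). *Acta2* overlapped between the conditions over all members (log2 fold change -0.68 ± 0.26, edgeR adjusted p 0.079). Over the low-keratin members it was lower (-0.77, adjusted p 0.0014), and that call was lost without CTL replicate 2 (-0.45, adjusted p 0.091) or LATS1/2-KO replicate 1 (-0.66, 0.12). Over all members its adjusted p ran from 0.00019 to 0.99 over the alternatives. Without CTL replicate 2, the higher CTL library in each of these genes, the log2 fold changes over all members were -0.01 for *Acta2* (adjusted p 0.99), -0.62 for *Tagln*, -1.13 for *Myh11*, -1.71 for *Lmod1* and -2.55 for *Cnn1*, the last 4 still called. In CTL replicate 1, 44.6% of the basal UMIs lay in 13 high-keratin members, and their part in these values was not tested. Among low-keratin cells the CTL medians still differed, at 23.1 and 37.6 UMIs per 10000 for *Acta2* and 12.9 and 22.2 for *Tagln*. The tropomyosin *Tpm1*, at 580, 1042, 857 and 705 CPM, overlapped and was not called (-0.53, adjusted p 0.030 over the low-keratin members), while *Cald1*, caldesmon, rose from 427 and 669 to 1303 and 1125 CPM (1.15 ± 0.21, adjusted p 0.0016). The contractile genes therefore did not move as 1 block in these cells.

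**Figure D2:**
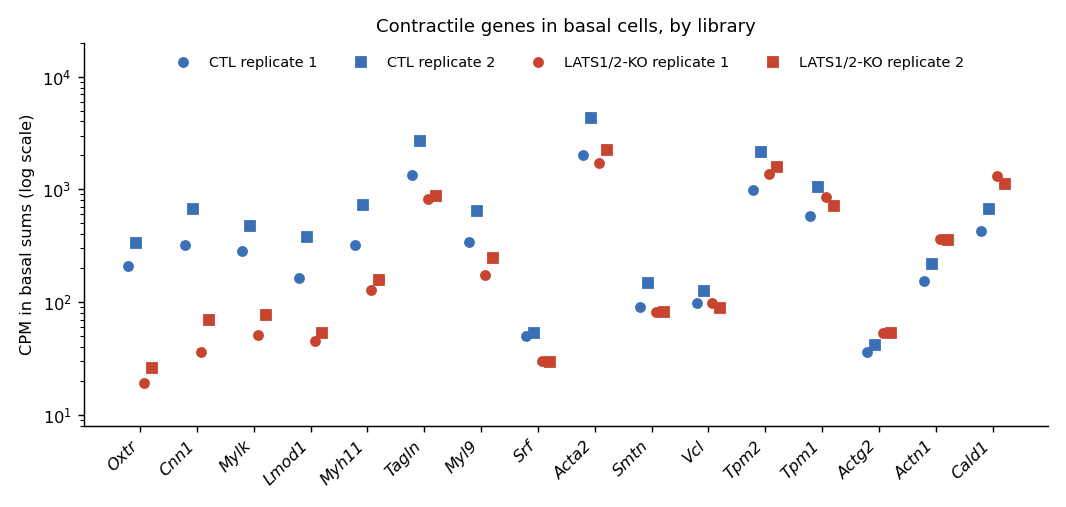
CPM in the summed basal counts, on a log vertical axis, for contractile genes on the horizontal axis; blue points are the 2 CTL and red points the 2 LATS1/2-KO libraries. *Oxtr*, *Cnn1*, *Mylk*, *Lmod1* and *Myh11* separate by condition with LATS1/2-KO lower, *Acta2* and *Tpm1* overlap, and *Cald1* is higher in LATS1/2-KO.

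The same genes were read cell by cell. In low-keratin members the median *Acta2* level was 23.1 and 37.6 UMIs per 10000 in CTL and 12 and 9.75 in LATS1/2-KO, while the 90th percentile was 53.9 and 77.3 against 48.6 and 52.4. Cells without an *Acta2* UMI made up 2.70 and 2.20% in CTL and 14.3 and 20.9% in LATS1/2-KO. The lower part of the distribution had moved more than its top.

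A split at 5 *Acta2* UMIs per 10000, chosen after its values were seen and used as a range and not as a cell type, put 6 of 74 and 6 of 91 CTL cells under it and 88 of 245 (35.9%) and 150 of 354 (42.4%) LATS1/2-KO cells. Among cells at or over the split *Acta2* was at 3125 and 4560 CPM in CTL and 2977 and 3830 in LATS1/2-KO. *Cnn1* in those cells was nonetheless at 513 and 698 against 57.6 and 114 CPM, *Mylk* at 450 and 484 against 62.4 and 93.5, and *Oxtr* at 308 and 333 against 25 and 37.0. The *Acta2* sum of LATS1/2-KO replicate 2 thus lay between the CTL values and that of replicate 1 under both, while *Cnn1*, *Mylk* and *Oxtr* were under both CTL values in each. The *Acta2*-low LATS1/2-KO cells held *Krt14* at 2904 and 2155 CPM and *Krt5* at 947 and 807, against 3048 and 3222 and 1533 and 1638 CPM in the other LATS1/2-KO cells. These are sums over cells without a test.

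**Figure D3:**
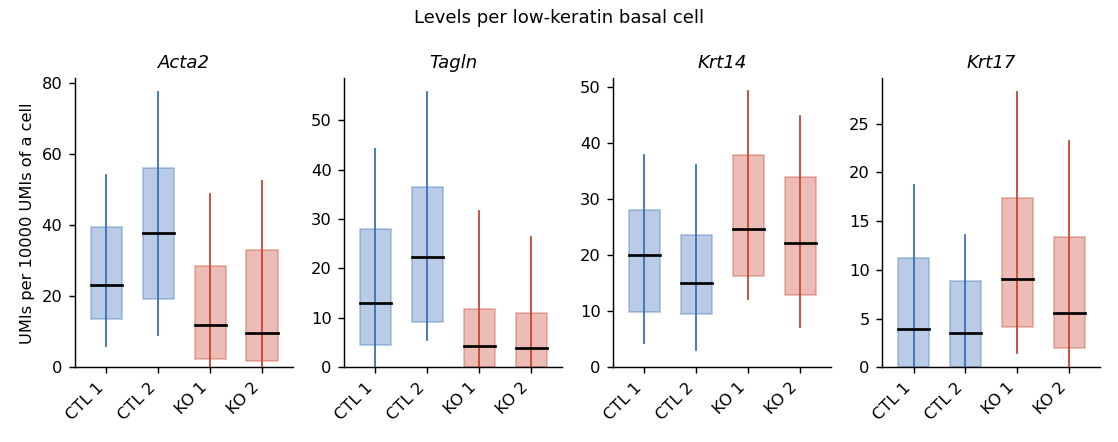
Single-cell levels of *Acta2*, *Tagln*, *Krt14* and *Krt17*, in UMIs per 10000 UMIs of a cell on the vertical axes, over the low-keratin basal members of each library (KO is LATS1/2-KO). Black lines are medians, boxes the 25th to 75th percentiles and thin lines the 10th to 90th; *Acta2* medians are 23.1 and 37.6 for CTL, 12 and 9.75 for LATS1/2-KO.

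The promoters of contractile genes are shown since several of these genes moved together and since TEAD factors and serum response factor are the textbook regulators of, respectively, YAP/TAZ targets and smooth muscle genes. The sequences are the 250 bases before the RefSeq start of each gene on mouse build GRCm38.p6, read 5′ to 3′ on the gene's strand. Capitals mark the motif GGAATG (or its reverse complement CATTCC), the core that TEAD factors bind, or a CArG box, to which serum response factor binds; both strands were searched, and the 2 motifs can overlap at a shared GG or CC. *Mylk* is at chr16:34784700-34784949 (+), *Lmod1* at chr1:135324563-135324812 (+) and *Myl9*, a myosin light chain gene, at chr2:156775214-156775463 (+).
Mylk: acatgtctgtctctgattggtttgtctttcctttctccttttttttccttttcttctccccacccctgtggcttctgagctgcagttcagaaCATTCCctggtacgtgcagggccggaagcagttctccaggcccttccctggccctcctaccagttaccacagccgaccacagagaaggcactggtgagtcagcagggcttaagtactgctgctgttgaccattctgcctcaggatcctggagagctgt
Lmod1: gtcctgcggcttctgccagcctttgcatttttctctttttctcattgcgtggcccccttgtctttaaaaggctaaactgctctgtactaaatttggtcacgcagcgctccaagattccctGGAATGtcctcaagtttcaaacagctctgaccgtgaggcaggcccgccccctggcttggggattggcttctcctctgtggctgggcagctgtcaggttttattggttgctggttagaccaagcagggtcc
Myl9: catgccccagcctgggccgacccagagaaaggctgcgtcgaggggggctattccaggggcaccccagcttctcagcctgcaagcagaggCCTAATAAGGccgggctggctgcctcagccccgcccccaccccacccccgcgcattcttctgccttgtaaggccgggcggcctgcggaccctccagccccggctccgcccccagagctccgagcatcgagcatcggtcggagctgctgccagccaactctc

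Of the 22 contractile genes 17 had a promoter in the RefSeq table. GGAATG was in 7 of the 17 windows, *Acta2*, *Cald1*, *Lmod1*, *Mylk*, *Smtn*, *Tpm1* and *Vcl*, where 12.6% of 27025 promoter windows of that length held it, and a CArG box was in 3, *Myl9*, *Srf* and *Vcl*, against 1.40%. The genes that hold GGAATG include some that were lower (*Mylk*, *Lmod1*), 1 that was higher (*Cald1*) and some not called. Only the exact form CCWWWWWWGG, where W is A or T, was counted as a CArG box. The *Acta2* window holds ccctatatgg, which departs from this form at a single base and was not counted. Absence from the count thus does not show that a promoter lacks a CArG-like element. A match is a run of letters and says nothing about binding in these cells.

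Epithelial and basal markers outside the contractile group were called in both directions. Of 26 listed, 24 were tested; 4 were higher and 11 lower. All 4 that rose kept the call in each alternative over all members: *Krt14* (log2 fold change 0.71 ± 0.17), *Krt17* (498 and 586 CPM in CTL, 1202 and 1020 in LATS1/2-KO; 1.04 ± 0.18), the integrin chain *Itgb1* (271 and 283 against 693 and 666; 1.30 ± 0.18) and the IGF-binding protein *Igfbp3* (134 and 139 against 383 and 294; 1.31 ± 0.21). Over the low-keratin members *Krt14* was called (0.48) but lost the call without CTL replicate 2, without LATS1/2-KO replicate 1 or without LATS1/2-KO replicate 2 (0.40, 0.43 and 0.52), and *Igfbp3* lost it without LATS1/2-KO replicate 1 (0.86). *Krt15*, another basal keratin, was lower, at 58.2 and 18.5 CPM in CTL and 1.96 and 1.82 in LATS1/2-KO (-4.33 ± 0.57, and -3.22 without CTL replicate 1; over the low-keratin members the call was lost without LATS1/2-KO replicate 1, -3.91), with its UMIs in 9 and 7 CTL members and in 1 and 4 LATS1/2-KO members.

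The markers that fell include secreted and surface proteins. *Apoe*, apolipoprotein E, stood at 4337 and 5816 CPM in CTL and at 1275 and 1410 in LATS1/2-KO (log2 fold change -1.92 ± 0.17, edgeR adjusted p 4.2e-06). *Cxcl14*, a chemokine, stood at 1675 and 2168 against 617 and 748 CPM (-1.49 ± 0.19). *Mme*, the surface peptidase CD10, stood at 199 and 248 against 88.8 and 106 CPM (-1.19 ± 0.21), and *Id4*, an inhibitor of helix-loop-helix factors, at 193 and 327 against 97.1 and 82.6 (-1.53 ± 0.24). In luminal cells *Cxcl14* went the other way, with a log2 fold change of 3.56, and the difference between the 2 cell classes passed its own test (adjusted p 7.7e-11, edgeR quasi-likelihood test with the mouse as block). *Snai2*, *Itga6*, *Cdh3*, *Sox10*, *Vim* and *Sparc* were not called over all members. Over the low-keratin members *Vim* (-0.72) and *Sparc* (-0.43) were lower, and without CTL replicate 1 *Snai2* (-0.97) and *Vim* (-0.70) were lower over all members.

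Taken by size, and among genes with little free RNA, the 12 genes with the largest rise and the 12 with the largest fall went from near absence to a clear level or the reverse. They come from 456 genes that met the limits on level, overlap and free RNA. Each of the 24 kept its direction in all 20 alternatives that were computed for it. A choice by size and without overlap favours this, so it is no separate support. The genes that rose were of several kinds. *Tnc*, tenascin C, a matrix glycoprotein, had 0 UMIs in both CTL sums and stood at 223 and 146 CPM in LATS1/2-KO, at least 59.4-fold higher when CTL is set to a floor of 3 UMIs over the group; it was seen in 48.6 and 38.1% of LATS1/2-KO members and in no CTL member. *Anxa8*, an annexin, rose from 2.01 and 9.27 to 413 and 422 CPM (log2 fold change 6.25 ± 0.37, edgeR adjusted p 9.4e-08) and was seen in 87.8 and 86.5% of LATS1/2-KO members against 1.15 and 4.30% of CTL members.

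*Gpx2*, a glutathione peroxidase, rose from 4.01 and 4.63 to 313 and 275 CPM, and *Cpe*, carboxypeptidase E, from 4.01 and 2.32 to 176 and 208. *Timp1*, an inhibitor of metalloproteinases, rose from 12 and 11.6 to 240 and 151 CPM (4.04 ± 0.36). The other 7 were *Adam12*, a membrane metalloproteinase, *Ifi27l2a*, an interferon-induced gene, *Fbln5*, a fibulin of elastic fibres, *Tnfrsf23*, a decoy receptor for TRAIL, the secreted protease *Prss12*, and the neural adhesion molecules *Cntn2* and *Chl1*, with log2 fold changes of 4.09 to 5.53. In no LATS1/2-KO library did a single cell hold more than 8.57% of the UMIs of any of the 12. *Cpe*, *Cntn2*, *Chl1* and *Tnfrsf23* had 3 UMIs over both CTL sums, *Fbln5* 2 and *Adam12* 1, so their ratios are loose: 60.4 for *Cpe* (exact 95% counting interval 20.6 to 293), 25.3 for *Tnfrsf23* (8.58 to 123), 28.4 for *Fbln5* (7.78 to 235) and 50.3 for *Adam12* (8.95 to 1995). Leaving out 1 CTL library moved the fold of *Adam12*, *Anxa8*, *Chl1*, *Fbln5* and *Tnfrsf23* by over 1.5 times: without CTL replicate 1 the log2 fold changes were 4.52, 5.51, 3.62, 3.75 and 10.16, and without CTL replicate 2 they were 9.57, 7.67, 4.79, 9.78 and 3.78. The values above 9 are fits against a CTL library with 0 UMIs and are no measure of size.

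*1500015O10Rik*, which encodes a secreted peptide precursor, fell most. It stood at 758 and 1255 CPM in CTL and at 13.2 and 8.0 in LATS1/2-KO (log2 fold change -6.58 ± 0.32, edgeR adjusted p 3.5e-08), and was seen in 75.9 and 77.4% against 7.34 and 4.15% of members. *Scn7a*, a sodium channel, stood at 217 and 371 against 10.3 and 15.3 CPM, and *Mdk*, the growth factor midkine, at 132 and 190 against 10.8 and 6.55. Over the low-keratin members *1500015O10Rik* stood at 1239 and 1327 against 13.9 and 8.19 CPM, and *Scn7a* at 353 and 378 against 12.7 and 16.0. *Col14a1*, a fibril-associated collagen that is also on the fibroblast list, stood at 132 and 195 against 5.89 and 4.0 CPM and was seen in 44.8 and 47.3% of CTL members. Of the 9 fibroblast markers, *Col14a1* among them, 5 and 4 had no UMI in the CTL sums. Together the 9 stood at 267 and 391 CPM there. The other 8 were *Fmod*, fibromodulin, the ephrin *Efna2*, the carboxypeptidase-like *Cpxm2*, *Fgf1*, the imprinted RNA *Meg3*, *Oxtr*, *Paqr6* and the lipase inhibitor *G0s2*, with log2 fold changes of -3.35 to -5.98. Without CTL replicate 2 that of *Cpxm2* was -3.13 in place of -3.88.

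**Figure D4:**
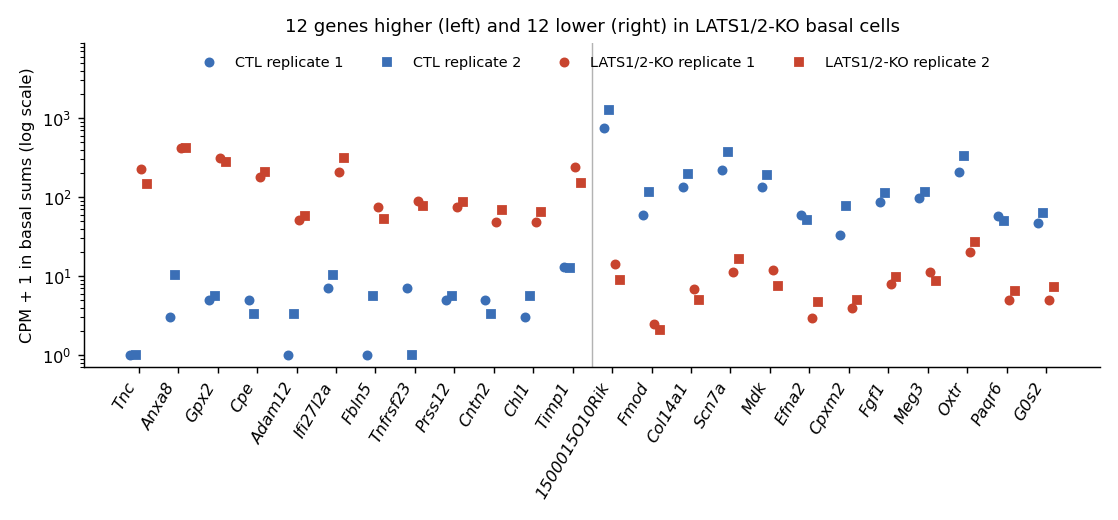
CPM + 1 in the summed basal counts, on a log vertical axis, for the 12 genes with the largest rise and the 12 with the largest fall, on the horizontal axis; each point is 1 library. Genes were taken only where the conditions do not overlap, so the separation of the points is fixed by the choice; *Tnc* has both CTL points at 0 CPM.

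Basement membrane genes changed by chain. Of 26 listed 19 were tested, with 5 higher and 3 lower, and in DESeq2 3 and 3. The calls of *Lamb3*, *Col7a1* and *Agrn* among the higher and *Lama1* among the lower depended on single libraries. *Col18a1*, a collagen with heparan sulfate chains, rose from 38.1 and 48.6 to 332 and 291 CPM (log2 fold change 2.85 ± 0.24, edgeR quasi-likelihood test). *Col4a6*, a collagen IV chain, stood at 64.2 and 88.0 against 12.8 and 16.4 CPM (-2.35 ± 0.29), and *Col4a5*, whose gene lies beside it, at 56.2 and 78.8 against 29.9 and 20.4 (-1.43 ± 0.30). The main collagen IV chains *Col4a1* and *Col4a2* and the laminin chain *Lamc1* were not called, though without CTL replicate 2 *Col4a1* and *Col4a2* were higher (1.18 and 1.17). The call of *Col4a5* was lost over the low-keratin members without CTL replicate 2 (-1.13).

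The matrix beyond the basement membrane rose in more genes than it fell, 12 against 3 of 29 tested, and over the low-keratin members 11 against 4 of 26. The collagens that the membership rule limits, which got no test, also stood higher in LATS1/2-KO members. With the estimated free RNA subtracted it was 6 against 6 of 22 over all members. Over the low-keratin members with that subtraction it was 8 against 5 of 23. *Postn*, periostin, stood at 207 and 310 CPM in CTL and 791 and 895 in LATS1/2-KO, with 16.2 and 14.8% of the latter put down to free RNA (log2 fold change 1.71 ± 0.22, edgeR adjusted p 7.9e-05), and it was seen in 91.6 and 89.9% of LATS1/2-KO members. *Fn1*, fibronectin, stood at 2.01 and 2.32 against 259 and 97.1 CPM, with 24.8 and 43.4% put down to free RNA (6.31 ± 0.74, and 5.41 without LATS1/2-KO replicate 1). With 2 UMIs of *Fn1* over both CTL sums, the ratio was 77.3 with an exact 95% counting interval of 21.3 to 640. *Ltbp2*, which binds fibrillin microfibrils, stood at 235 and 271 against 48.6 and 49.5 CPM (-2.36 ± 0.20). For *Thbs2* and *Cpxm1*, with 0 UMIs in CTL, the free RNA estimate exceeded the counts seen in LATS1/2-KO.

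Of 24 genes for integrins and hemidesmosomes, all tested, 10 were higher and 3 lower, and in DESeq2 7 and 3. The calls of *Itgb3*, *Itgb6*, *Plec*, *Cd151* and *Ilk* among the higher and *Itga1* among the lower depended on single libraries. *Itgb4*, the integrin chain of the hemidesmosome, stood at 60.2 and 39.4 CPM in CTL and 169 and 170 in LATS1/2-KO (log2 fold change 1.75 ± 0.24, edgeR adjusted p 0.00016). The laminin receptors *Itga3* and *Bcam* rose (1.69 ± 0.32, or 2.41 without CTL replicate 2, and 1.41 ± 0.24), as did *Zyx*, the focal adhesion protein zyxin (1.73 ± 0.23). *Dst*, whose product ties keratins to hemidesmosomes, was at 363 and 519 against 200 and 226 CPM (-1.05 ± 0.21), so the hemidesmosome did not move as a unit.

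Cell-cell junction genes were higher where they changed: 8 of 19 tested rose and none fell at the threshold, in edgeR or in DESeq2, though *Ocln* and *Tjp1*, at tight junctions, were 2 genes lower at an unadjusted p under 0.05, and without CTL replicate 2 *Tjp1* was called (-1.11). *Dsp*, desmoplakin, stood at 134 and 169 CPM in CTL and 463 and 406 in LATS1/2-KO (1.52 ± 0.21, edgeR adjusted p 0.00016). *Perp*, a desmosome-associated tetraspan, stood at 150 and 160 against 364 and 387 CPM (1.28 ± 0.20). *Jup*, plakoglobin, and *Pkp1*, a plakophilin, rose as well (1.19 ± 0.25 and 1.42 ± 0.26), and *Cdh2*, N-cadherin, rose from 2.01 and 2.32 to 24.0 and 28.0 CPM, a ratio of 12.2 on 2 CTL UMIs (3.32 to 102).

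Targets of YAP and TAZ did not rise as a group in basal cells. Of 22 listed 18 were tested, with 4 higher and 4 lower, and in DESeq2 2 and 3. The calls of *Myof* and *Nt5e* among the higher and *Cyr61*, *F3* and *Rbms3* among the lower depended on single libraries. The median log2 fold change was 0.11 over all members and -0.42 over the low-keratin members. *Ctgf*, a matricellular protein and a standard YAP/TAZ readout, overlapped between the conditions at 249, 512, 405 and 674 CPM (0.51 ± 0.29, edgeR adjusted p 0.24). Without CTL replicate 2 the log2 fold change was larger, 1.14. The CTL library then left, replicate 1, had 44.6% of its basal UMIs in high-keratin members, and their part in this was not tested. In luminal cells the log2 fold change of *Ctgf* was 6.1, and the difference between basal and luminal cells passed its test (edgeR adjusted p 1.9e-08). *Ptpn14*, a phosphatase that binds YAP, stood at 98.3 and 151 against 37.3 and 50.9 CPM (-1.47 ± 0.25; not called with the sums thinned to the smallest, adjusted p 0.085) and rose in luminal cells (2.06). For *Ankrd1*, which was higher in the members, the free RNA estimate came to 171 and 82.0% in the LATS1/2-KO sums.

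In the Hippo pathway itself 2 of 21 genes tested were higher and 1 lower. *Yap1* stood at 52.2, 74.1, 43.2 and 58.6 CPM and *Wwtr1*, which encodes TAZ, at 130, 111, 135 and 136, and neither was called (log2 fold changes -0.29 ± 0.27 and 0.16 ± 0.20). *Map4k4*, a kinase that activates LATS, rose from 82.2 and 88.0 to 238 and 208 CPM (1.39 ± 0.21).

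Ligands and other signals of the basal layer were more often lower. Of 42 growth factors, cytokines and binding proteins listed 32 were tested, 11 lower and 6 higher. *Igfbp5*, an IGF-binding protein, stood at 2076 and 2205 CPM in CTL and 140 and 195 in LATS1/2-KO (log2 fold change -3.68 ± 0.21, edgeR adjusted p 8.3e-08). *Cxcl12*, a chemokine, stood at 156 and 171 against 52.0 and 64.0 CPM (-1.49 ± 0.21), and *Gas6*, the ligand of the TAM receptors, at 253 and 331 against 57.4 and 65.5 (-2.24 ± 0.21). *Bmp1*, a procollagen protease, rose from 16.1 and 39.4 to 122 and 149 CPM (2.32 ± 0.31, and 3.1 without CTL replicate 2).

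In the Notch pathway 1 of 9 genes tested was higher and 3 lower. The ligand *Jag1* rose from 58.2 and 34.7 to 162 and 137 CPM (log2 fold change 1.66 ± 0.26, edgeR adjusted p 0.00043), and the ligand *Dll1* fell from 72.2 and 107 to 29.9 and 37.1 CPM (-1.39 ± 0.26). In the Wnt pathway 3 of 23 were higher and 6 lower. The inhibitor *Wif1* stood at 84.3 and 97.3 against 18.6 and 17.5 CPM (-2.32 ± 0.25), the receptor *Fzd7* at 76.2 and 116 against 28.0 and 32.4 (-1.65 ± 0.25), and the ligand *Wnt10a* at 8.02 and 2.32 against 44.6 and 30.6 (2.77 ± 0.54, and 3.99 without CTL replicate 1). Both *Jag1* and *Wnt10a* lost the call without CTL replicate 2 (0.73 and 1.48) and without LATS1/2-KO replicate 1 (1.21 and 2.12) over the low-keratin members. The shares called higher, 1 of 9 and 3 of 23, are near the 10.9% of all genes, and the higher calls of *Wnt7b* and *Tcf7* depended on single libraries. So did the lower calls of *Ror1*, *Axin2*, *Tcf7l2* and *Sfrp1* in the Wnt list and of *Notch1* and *Hey1* in the Notch list. In DESeq2 2 Notch and 2 Wnt genes were lower, and 1 of each was higher.

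**Figure D5:**
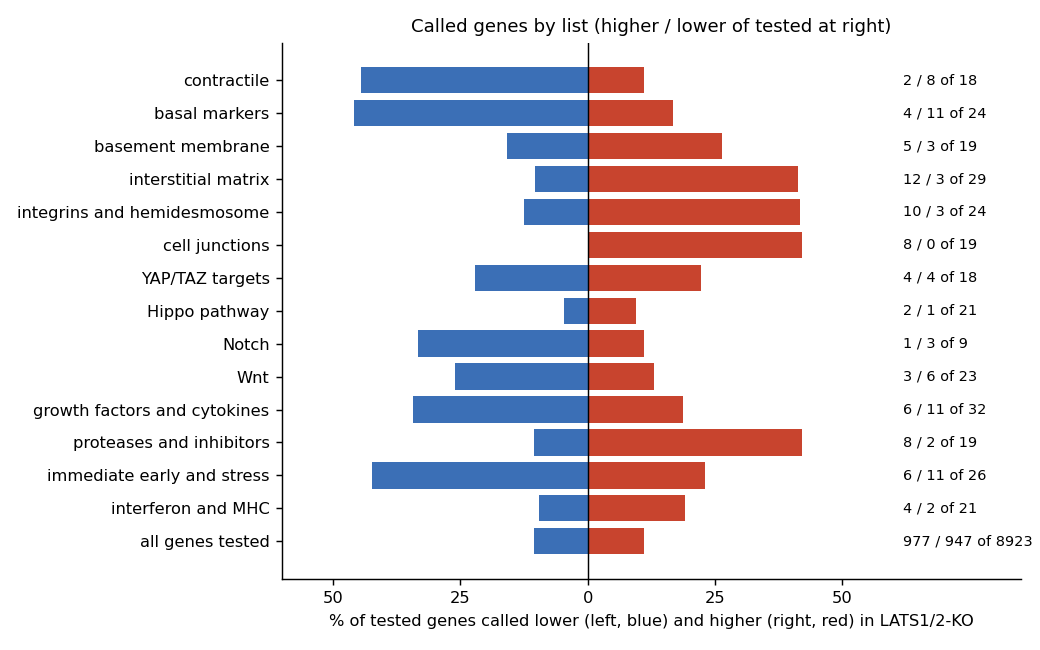
Share of the tested genes of each list that were called (edgeR adjusted p under 0.05), in percent on the horizontal axis, with lower in LATS1/2-KO as blue bars to the left and higher as red bars to the right; rows are lists and the counts stand at the right. Cell junctions have 8 higher and 0 lower of 19, contractile genes 2 and 8 of 18, and all genes tested 977 and 947 of 8923.

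Stress and dissociation genes and the cell cycle need the same reading. Of 26 immediate early and stress genes tested 11 were lower and 6 higher. *Fos* stood at 3737 and 4088 CPM in CTL and 1498 and 1822 in LATS1/2-KO (log2 fold change -1.24 ± 0.16, edgeR adjusted p 9.9e-05), and *Egr1* at 1721 and 2136 against 356 and 506 (-2.16 ± 0.20), both induced within minutes of a stimulus such as dissociation, while the heat shock gene *Hspa1b* rose from 295 and 299 to 621 and 756 (1.21 ± 0.19). *Fos* and *Egr1* fell in luminal cells too (-1.43 and -1.71). Their part in the other differences was not tested.

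Of 22 cell cycle genes tested 13 were higher and none lower in edgeR or DESeq2 (0 lower at an unadjusted p under 0.05). Over the low-keratin members 6 of 12 were higher, and 2 of 7 with free RNA subtracted as well. How far free RNA made up these counts was not tested. *Ube2c*, at 43.2 and 25.5 CPM in LATS1/2-KO and 0 UMIs in CTL, had a free RNA estimate of 97.7 and 98.9%. After subtraction over all members 1 of 6 cell cycle genes tested was called. At 2000 UMIs per cell *Mki67* was seen in 2.07 and 0.865% of low-keratin LATS1/2-KO members, in 5.88 and 1.30% of endothelial cells and in 9.0 and 8.05% of luminal cells. *Top2a*, a topoisomerase of dividing cells, was seen in 4.56 and 2.02% of low-keratin LATS1/2-KO members and in 1.47 and 2.60% of endothelial cells, and the exact 95% intervals overlap in both mice. Among high-keratin LATS1/2-KO members, 2 of 40 and 4 of 31 had *Mki67*. Cycling of low-keratin members over this background was not resolved at these cell numbers. The free RNA estimate was 33.8 and 59.6% in the endothelial cells against 11.4 and 5.85% in the low-keratin members, so this background was not matched.

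Where luminal and basal cells of the same mice were set against each other, 1604 of 14091 genes (11.4%) had a LATS1/2-KO effect that differed between the classes (edgeR quasi-likelihood test with the mouse as block), 1066 (7.57%) with the more positive effect in basal cells and 538 (3.82%) with the more negative. In luminal cells alone 59.7% of the genes tested were called, 31.0% higher and 28.7% lower. With RLE size factors the split was 701 against 609. Without LATS1/2-KO replicate 1 the count was 774 (382 more positive, 392 more negative), and without replicate 2 it was 705 (340 and 365), so the excess of more positive effects was not seen with either left out.

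Some contractile and basal genes are given here for both classes. *Acta2* had a log2 fold change of 2.85 in luminal cells against -0.68, not called, in basal cells (difference -3.26, adjusted p 8.9e-10), *Cnn1* 0.89 against -3.21 (-3.89, adjusted p 5.7e-08), and *Krt14*, higher in both classes, 8.66 against 0.71 (-7.73, adjusted p 4.3e-13). *Vim*, vimentin, had 5.81 against -0.45, also not called in basal cells (-6.03, adjusted p 1.6e-11). In absolute terms the 22 contractile genes together were at 683 and 739 CPM in CTL luminal cells and 3503 and 3655 in LATS1/2-KO luminal cells, and at 7267 and 14237 against 7498 and 8172 CPM in basal cells. Over the low-keratin basal members the sums were 10895 and 14852 against 8200 and 8470 CPM, without overlap between the conditions. The sums of the 2 classes lay closer together in LATS1/2-KO than in CTL, which was not tested.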

How the data were processed

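UMI counts per gene and cell were deposited by the authors, whole numbers not normalized, in 1 matrix per library with 28693 genes; 58 duplicated symbols were kept apart, and 0 columns belonged to other samples. The matrix header names Cell Ranger 6.1.2, where the submitters' processing notes name Cell Ranger 3.1.0 and build mm10. Kept cells had over 500 genes and under 20% mitochondrial UMIs, and their UMIs summed to 46810771, 42630666, 38792520 and 44758376. No doublet caller was run and no doublets were removed; members with *Krt8* and *Krt18* at 0.3% of UMIs or more were left out in an alternative.

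Counts were summed over the basal members of each library (516197, 447556, 1971006 and 2648798 UMIs) and tested with edgeR 4.0.16 (filterByExpr, TMM, quasi-likelihood F test, R 4.3.3, limma 3.58.1), calling an adjusted p under 0.05. DESeq2 1.42.0 was an alternative. CPM of single genes use TMM; marker-list sums, the *Acta2* split and the cells just outside the rule use 1000000 UMIs without TMM. Luminal cells were kept cells with *Epcam* and with *Krt8* and *Krt18* at 0.4% or more of UMIs. Named genes were the 12 with the largest rise and the 12 with the largest fall among called genes outside the membership rule with a mean of at least 50 CPM in the higher condition, no overlap between conditions and under 25% of the counts put down to free RNA in both libraries of that condition; members of the gene lists were named by role. Free RNA was taken to have the composition of all barcodes of a library summed, and its share was set by *Wfdc18*, *Csn3*, *Plet1* and *Trf*. The members and lists were chosen with earlier results of these data known. Replicate numbers were checked for pairing (r = 0.098 over 8923 genes between the replicate 1 minus 2 differences of the conditions) and not used in the test. On simulated counts for the basal comparison, calls recovered 30.1% of 103 genes changed by 1 on the log2 scale and 87.7% of 81 changed by 2, with 0.0356% of 8424 unchanged genes called. Alternatives added after seeing the data were low-keratin members with free RNA subtracted, at least 2 of *Krt5*, *Trp63* and *Col17a1*, and leaving out libraries or blocking by replicate over low-keratin members. Promoters came from RefSeq on GRCm38.p6. Scripts used Python 3.11.15, numpy 2.4.6, pandas 2.3.3 and scipy 1.17.1.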

Additional observations from a re-analysis of the deposited data

Results flagged for a closer look

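For 16 of the genes named for their size, the LATS1/2-KO effect in basal cells differed from that in luminal cells (edgeR quasi-likelihood test with the mouse as block). Values are the basal minus the luminal log2 fold change. The basal effect was the more positive for *Anxa8* (4.79), *Chl1* (4.02), *Gpx2* (3.97), *Timp1* (3.93) and *Tnfrsf23* (3.26), with luminal values of 1.67, 0.28, 2.35, 0.33 and 1.61. *Cpe* had a difference of 2.09 over a luminal value of 3.99.

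It was the more negative for *1500015O10Rik* (-6.78), *Fmod* (-5.69), *Col14a1* (-5.62), *Cpxm2* (-5.58), *Scn7a* (-5.56) and *Meg3* (-4.59), whose luminal values were 0.39, -0.15, 0.77, 1.86, 1.26 and 1.22. *G0s2* (-2.04), *Oxtr* (-1.96), *Efna2* (-1.92) and *Mdk* (-1.42) had luminal values of -1.21, -1.44, -2.17 and -2.64.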

How the results depend on the processing

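Basal calls, 1924 over all members, numbered 854 with DESeq2, 1130 with at least 4 rule markers and 800 with the sums thinned to the smallest, and 876 to 1647 with 1 library left out. The other alternatives were within 1.5 times, among them 1830 with the replicate number as a block, which was not supported as a pairing. Most of the gene lists held some calls that depended on single libraries. Calls for the difference between basal and luminal effects, 1604, numbered 2642 over low-keratin members, 1057 without the mouse block and 705 to 1868 with 1 library left out. The difference in basal share, 4.63 percentage points, was 3.54 with at least 4 markers, 3.53 with at least 2 of *Krt5*, *Trp63* and *Col17a1*, 2.55 at 2000 UMIs per cell and 4.15 to 5.11 with 1 library left out. Leaving out a library or thinning reduces samples or counts by construction; for the others the cause was not tested. At these depths changes of 1 on the log2 scale were mostly missed in the simulated counts.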

Other observations

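Proteases and their inhibitors were called in 10 of 19 tested, 8 higher and 2 lower in LATS1/2-KO basal cells. *Mmp14*, a membrane metalloproteinase, stood at 74.2 and 51.0 CPM in CTL and at 208 and 268 in LATS1/2-KO (1.92 ± 0.25), with 31.6 and 27.1% of the latter put down to free RNA. *Ctsl*, a lysosomal protease, stood at 716 and 887 against 1315 and 1396 CPM (0.76 ± 0.18), and lost its call without LATS1/2-KO replicate 2 (0.71, edgeR adjusted p 0.072).

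Of 21 interferon and antigen presentation genes tested 4 were higher and 2 lower, against 10.9 and 10.6% of all genes, and over the low-keratin members 8 were higher and 1 lower of 20. *Irf7* rose from 6.02 and 13.9 to 41.2 and 61.5 CPM (2.41 ± 0.45), while *Irf1*, also a transcription factor of this response, fell from 116 and 134 to 33.8 and 41.1 (-1.73 ± 0.22). Of 10 genes tested from a list for epithelial-mesenchymal transition, 5 were higher and 0 lower in edgeR and in DESeq2, and 0 were lower at an unadjusted p under 0.05. Over the low-keratin members 5 were higher and 1 lower of 9, and with free RNA subtracted 4 were higher and 2 lower of 8. They include *S100a4*, a calcium-binding protein, at 2.01 and 2.32 against 53.0 and 55.3 CPM (4.60 ± 0.52). Of 21 squamous genes 4 were tested and 2 were higher.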
